A study of Mus musculus with 16 samples.

Results

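Blood endothelial cells (BECs) line the blood vessels of the lymph node, and 336 of them were found among 50386 cells of 16 single-cell libraries. They were selected on measured counts of unique molecular identifiers (UMIs, 1 per captured transcript): a kept cell had to hold at least 1000 UMIs, at least 2 UMIs of Cdh5 and Pecam1 together and at least 1 of Flt1, with at most 1 UMI of the leukocyte gene Ptprc, none of the pericyte gene Pdgfrb and none of the lymphatic genes Prox1, Flt4, Mmrn1 and Lyve1. Nothing said below about these 9 genes is a test. All mice were C57Bl/6, sex-matched and 8 weeks old. The tested mice carried 500000 MC38 cells, a mouse colon carcinoma line, under the skin of the lower right flank, either live and growing as a tumor or killed by paraformaldehyde fixation, and nodes were taken at day 12. The 5 groups were inguinal nodes draining live MC38 cells (3 libraries, 30 BECs), the opposite nodes that do not drain them (3 libraries, 68 BECs), nodes draining fixed MC38 cells (3 libraries, 65 BECs), the opposite nodes of fixed-cell recipients (3 libraries, 31 BECs) and nodes of naive mice (4 libraries, 142 BECs). Whether libraries that share a replicate letter came from the same mouse is not given in the sources used here.

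The suspensions had been enriched with an antibody to PDPN, a surface protein of lymphatic endothelial cells (LECs) and fibroblastic reticular cells that BECs lack. The BECs described here were therefore carried through a positive selection for other cells, and their number says nothing of their number in the node. A subcutaneous graft of 1 cell line at 1 time point further limits what the draining nodes stand for.

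BECs of lymph nodes are of several kinds. High endothelial venules (HEVs) are the post-capillary vessels through which naive lymphocytes enter the node. Their tall cells make sulfated, fucosylated sugars on carriers such as GLYCAM1, which L-selectin on lymphocytes binds, and display CCL21, which triggers arrest. Arteries feed the node, and capillaries, whose lining responds to VEGF through KDR and the co-receptor NRP1, join arteries and HEVs. Vessels of a draining node are known to grow and remodel in an immune response.

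The 16 libraries held 7486725 to 48945961 UMIs each, of which BECs gave 50960 to 529268. The median BEC held 6208.5 to 6547.5 UMIs in live draining libraries and 6110.5 to 7230.0 in live non-draining libraries, and 4114.0 to 7612.0 over all libraries. The median mitochondrial share of a BEC was 3.75% to 7.57% in live draining nodes and 4.44% to 7.94% in live non-draining nodes, and reached up to 12.8% in fixed non-draining nodes. No BEC barcode was shared between libraries. Of the 336 cells, 34 were among those scored highest as doublets, 2, 4 and 3 of them in the live draining libraries and 3, 3 and 1 in the live non-draining libraries. Live draining replicate C and fixed non-draining replicate C held only 6 and 7 BECs. They enter the cell shares but not the gene tests, which needed 10 cells, so that the live draining and fixed non-draining nodes have n = 2 in those tests. Live non-draining replicate A stood apart in immunoglobulin transcripts, with 207 UMIs of Ighm in its BECs against 4 and 7 in the other live non-draining libraries.

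Markers that the selection did not use fitted its name. Summed over all BECs, Kdr, the main VEGF receptor, stood at 981 CPM (counts per 1e+06 UMIs), Egfl7 at 1756 CPM and Eng at 885 CPM. Of 12 lymphatic markers, 5 were at 0, among them the 4 that the selection required to be so and Reln. Pdpn gave 5 UMIs in all (1.95 CPM, against 143 CPM in LECs). The others were Sned1 with 111 UMIs in 19.35% of BECs, Fgl2 with 46, Marco and Itga2b with 38 each, Ackr4 with 23 and Coch with 14. The lymphatic markers summed to 39.2 to 157.4 CPM in live draining and 83.5 to 117.1 CPM in live non-draining libraries, and reached 391.3 CPM in 1 fixed non-draining library. Markers of T and NK cells summed to 0.0 to 116.1 CPM per library and those of myeloid cells to 0.0 to 167.0 CPM. Fibroblastic markers summed to 274.7, 359.7 and 402.2 CPM in live draining libraries and to 69.6, 70.3 and 399.2 CPM in live non-draining libraries, and reached 1384.9 CPM in 1 naive library. Their part in the results below was not tested.

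The Flt1 requirement decided most borderline cells. Just inside it, 39 BECs held a single Flt1 UMI. Their median depth was 2277.0 UMIs and their summed levels were 422 CPM of Kdr and 53800 CPM of the HEV gene Glycam1. The 297 BECs with 2 or more Flt1 UMIs had a median depth of 7039.0 UMIs, 1009 CPM of Kdr and 18824 CPM of Glycam1. Just outside, 239 cells failed for lack of Flt1 alone. They held 91.8 CPM of Kdr and 170 CPM of Egfl7, but 1095 CPM of the fibroblast gene Dcn and 303 CPM of Ccl20, a chemokine. Another 104 cells were outside for a single lymphatic UMI. They held 1171 CPM of Kdr and 1594 CPM of Flt1, against 981 and 1426 CPM in the members.

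BECs made up a smaller share of the kept cells in live draining libraries than in live non-draining libraries. They were 0.234%, 0.248% and 0.161% of kept cells in the 3 live draining libraries (12, 12 and 6 cells) and 0.988%, 0.931% and 0.809% in the 3 live non-draining libraries (36, 16 and 16 cells). The highest live draining share lay below the lowest live non-draining share, and the exact 95% binomial intervals, which cover counting error only, ran up to 0.432% in live draining and down to 0.463% in live non-draining libraries. The means were 0.214% ± 0.0463 and 0.91% ± 0.0914 (SD, n = 3 each), which is 4.25 times more in live non-draining nodes. An exact two-sided permutation test gave p = 0.1, the smallest that 3 against 3 libraries allow. In fixed-cell recipients the shares overlapped. BECs were 0.680%, 0.475% and 0.657% of kept cells in fixed draining libraries and 0.616%, 1.052% and 0.657% in fixed non-draining libraries (means 0.604% ± 0.112 and 0.775% ± 0.24, exact permutation p = 0.6). With doublets left out the fixed shares did not overlap (means 0.511% and 0.787%, exact permutation p = 0.1). Naive libraries held 0.76% to 1.31% (median 0.83%).

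**Figure D1:**
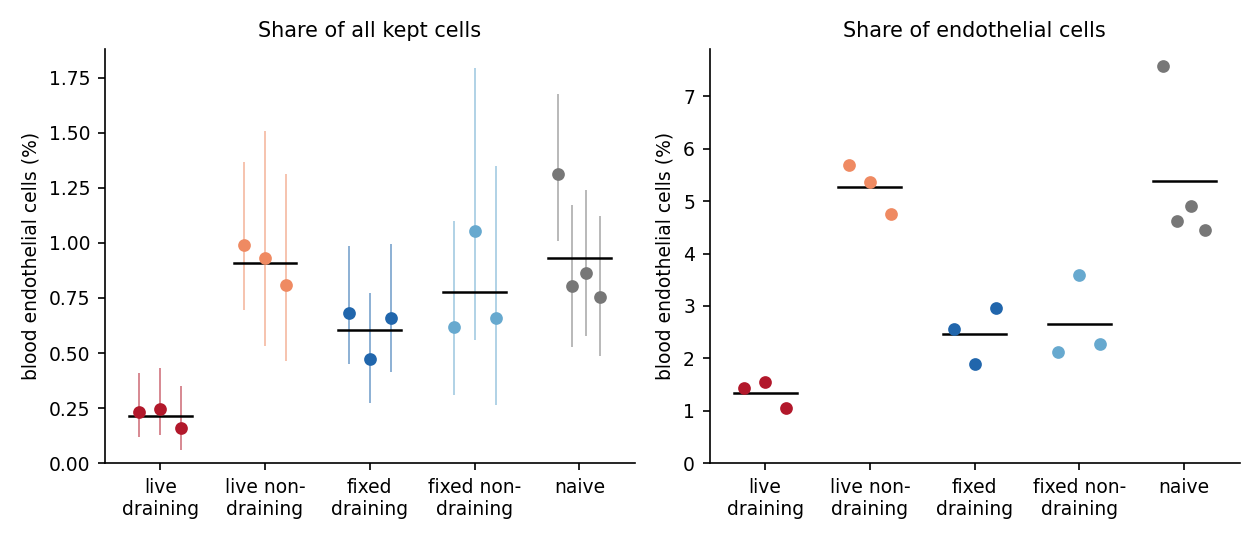
BECs as a percentage of all kept cells (left, with exact 95% binomial intervals as vertical lines) and of all endothelial cells, blood and lymphatic (right), with 1 point per library and the group mean as a bar. The live draining libraries sit lowest in both plots, at 0.161% to 0.248% of kept cells and 1.045% to 1.554% of endothelial cells.

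The live difference held against the other endothelium of the same suspensions. Among endothelial cells, BECs and LECs together, BECs were 1.432%, 1.554% and 1.045% in live draining libraries and 5.687%, 5.369% and 4.748% in live non-draining libraries, without overlap (means 1.34% ± 0.266 and 5.27% ± 0.478, a 3.92-fold lower mean in live draining nodes, exact permutation p = 0.1). LECs, which carry the PDPN used for enrichment, were 16.1%, 15.7% and 15.3% of kept cells in live draining libraries and 16.4%, 16.4% and 16.2% in live non-draining libraries. In fixed-cell recipients the BEC share of endothelium was 2.47% ± 0.547 in draining and 2.66% ± 0.808 in non-draining nodes (exact permutation p = 0.8), with LECs at 21.5% to 25.9% and 28.2% to 28.4% of kept cells. The live shares stayed without overlap when the Flt1 requirement was dropped (0.609% and 1.48% of kept cells), when a single lymphatic UMI was allowed (0.278% and 1.24%) and when doublets were left out (0.153% and 0.826%). By flow cytometry the paper reported expanded BEC numbers in draining nodes, at a comparable level for fixed cells and live tumors. Those were cell numbers relative to non-draining nodes, whereas the values here are shares after enrichment and give no BEC number. How far carry-over through the PDPN selection differed between suspensions cannot be told apart from a difference in the nodes.

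Clustered on their own, the 336 BECs fell into 5 clusters, whose leading genes are given as a description since they defined the clusters. The HEV-like cluster (73 cells), named for its marker genes, held Glycam1 at 69477 CPM, Ccl21a at 10402 CPM and Lrg1 at 2774 CPM. It alone held UMIs of Chst4 (152 CPM), the sulfotransferase that finishes the L-selectin ligand, and it led in Fut7 (352 CPM), the fucosyltransferase of the same pathway, in Ackr1 (311 CPM), a chemokine scavenger of venules, and in Selp and Vwf. Glycam1 was found in 69 of 73 HEV-like cells, with a median of 75 and a highest count of 9214 UMIs in 1 cell. In arterial-like cells, which should lack it, it was found in 12 of 48 cells with at most 2 UMIs. Median depths were 8033.0 and 6361.0 UMIs. The HEV-like cluster also led in the fibroblast gene Dcn (711 CPM, against 43.1 CPM in the other clusters), found in 30.1% of its cells. The collagen genes Col1a1, Col1a2 and Col3a1 were highest there too (57.2, 82.4 and 45.2 CPM). The part of fibroblast transcripts in this cluster was not tested.

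The capillary-like cluster (78 cells) was led by Col13a1 (332 CPM), Btnl9 (675 CPM), the retinoid-binding gene Rbp7 (508 CPM), Gpihbp1 (739 CPM), which anchors lipoprotein lipase to the capillary wall, and Rgcc (655 CPM). The arterial-like cluster (48 cells) held Fbln5 at 1013 CPM, the semaphorin Sema3g at 1174 CPM, the matrix gene Mgp at 704 CPM, the kinase gene Bmx at 130 CPM and the gap junction gene Gja5 at 130 CPM. Gja5 and Bmx stayed at or under 12.3 CPM in every other cluster.

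Clusters of 83 and 54 cells were left without a type. The larger one led in Igfbp3 (2882 CPM), the water channel gene Aqp1 (5151 CPM), the basement membrane gene Col4a1 (2830 CPM), the apelin receptor gene Aplnr (661 CPM) and the T cell attracting chemokine Cxcl9 (279 CPM), and is called the Aplnr and Cxcl9 cluster. Cxcl9 was found in 23 of its 83 cells, and 1 cell held 85 of its 159 UMIs. The other cluster led in Cyr61 (1621 CPM), an immediate early gene, followed by 8 predicted genes without a known role, the chaperone gene Dnajb1 (217 CPM) and the immediate early gene Nr4a1 (589 CPM). Fos, at 1674 CPM, and Jun, at 1641 CPM, were nearly as high in the HEV-like cluster (1399 and 1423 CPM). Its cells had a median of 2984.0 UMIs and 12.97% mitochondrial UMIs, against 4.80% to 7.49% in the other clusters, and it is called the stress-led cluster as a label only. Cell division genes were rare: Mki67 and Top2a exceeded 1 UMI only in capillary-like cells, where a single cell held 44 and 49 UMIs of them.

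**Figure D2:**
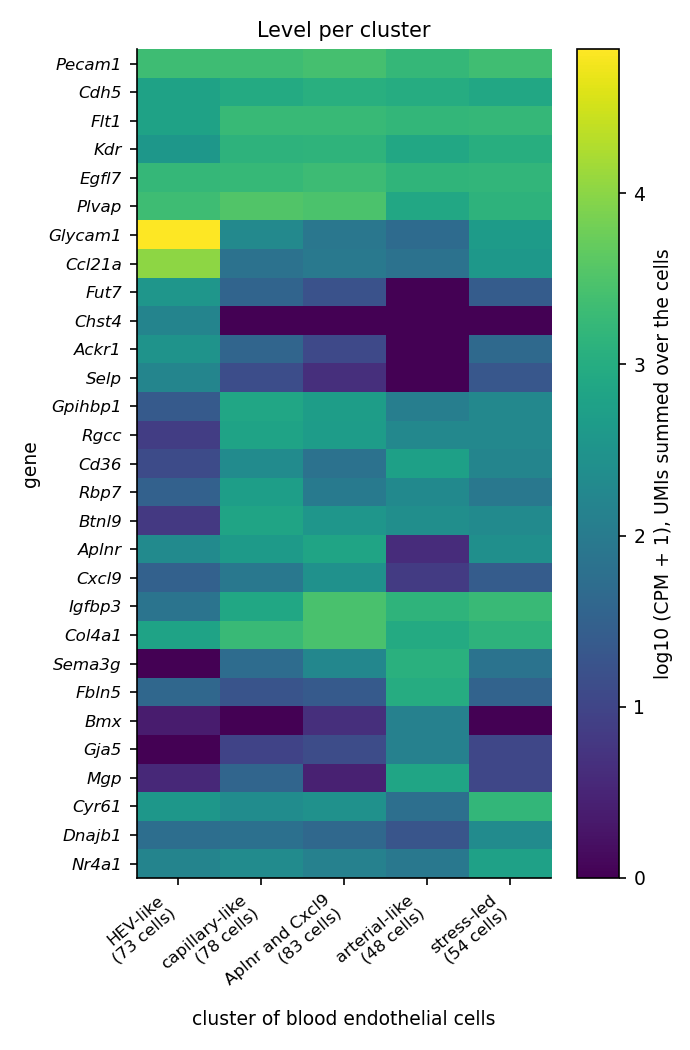
Level of selected genes (rows) in the 5 BEC clusters (columns, with their cell numbers), as log10 of CPM + 1 with UMIs summed over the cells of the cluster. Flt1, Cdh5 and Pecam1 are high throughout, since the selection used them, and Glycam1, Ccl21a and Chst4 mark the HEV-like column.

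The make-up of the BECs was uneven between libraries. In live draining nodes 10 of 30 BECs were HEV-like, 6 capillary-like, 11 of the Aplnr and Cxcl9 cluster, 1 arterial-like and 2 of the stress-led cluster. In live non-draining nodes these numbers were 16, 13, 19, 11 and 9 of 68. Arterial-like cells were 8.33%, 0.0% and 0.0% of BECs in live draining libraries and 11.1%, 25% and 18.8% in live non-draining libraries, so that the groups did not overlap (means 2.78% ± 4.81 and 18.3% ± 6.96, exact permutation p = 0.1). A test of cell numbers with edgeR gave a log2 fold change of -2.09 with an adjusted p of 0.366. With 0 to 1 such cell in each live draining library this difference rests on few cells. HEV-like cells were 50.0%, 33.3% and 0.0% of BECs in live draining libraries, on both sides of the 22.2%, 31.2% and 18.8% of live non-draining libraries (exact permutation p = 0.9).

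In fixed-cell recipients the arterial-like share was the higher one in draining nodes. Arterial-like cells were 22.2%, 25% and 18.2% of BECs in fixed draining libraries and 9.09%, 15.4% and 0.0% in fixed non-draining libraries (edgeR log2 fold change 1.11, adjusted p = 0.302). Capillary-like cells were 11.1%, 18.8% and 36.4% against 9.09%, 7.69% and 0.0% (edgeR adjusted p = 0.197). The Aplnr and Cxcl9 cluster was 33.3%, 18.8% and 18.2% of BECs in fixed draining libraries and 45.5%, 61.5% and 71.4% in fixed non-draining libraries (edgeR log2 fold change -1.22, adjusted p = 0.0956). Each of these 3 comparisons was without overlap at an exact permutation p of 0.1, and none passed edgeR's test. The 3 also overlapped when the cells were clustered after log-normalization in place of SCTransform (exact permutation p = 0.5, 0.2 and 0.3), where the Aplnr and Cxcl9 difference was -12.4 percentage points in place of -36.1, and arterial-like shares overlapped at a resolution of 0.4 (p = 0.6). In naive nodes the clusters HEV-like, capillary-like, Aplnr and Cxcl9, arterial-like and stress-led held 34, 43, 19, 19 and 27 of 142 cells.

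**Figure D3:**
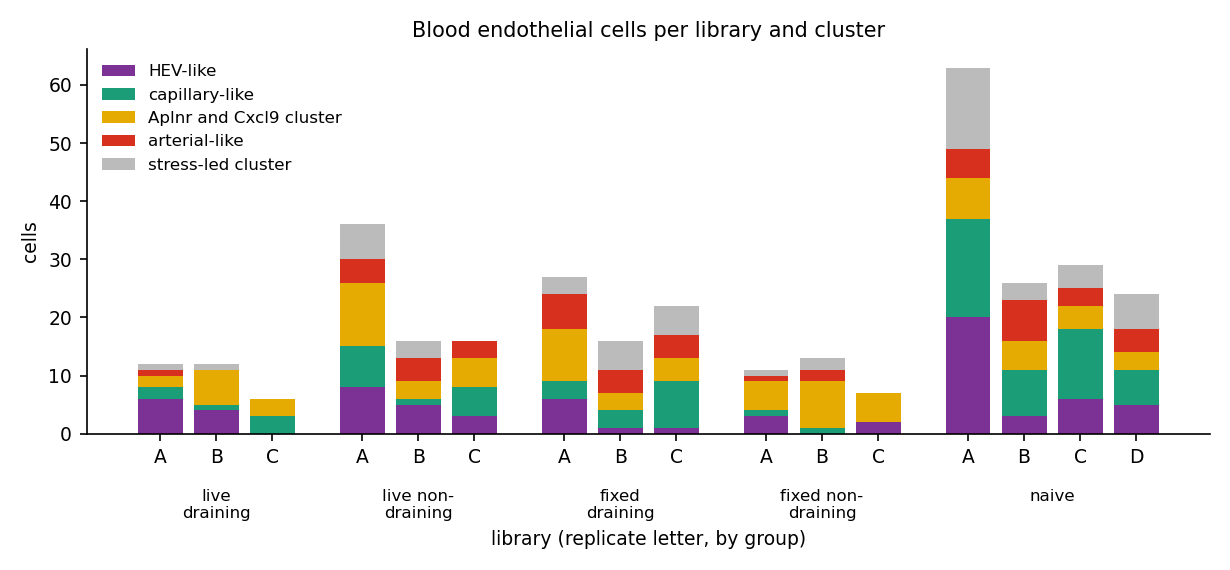
Number of BECs per library (bars, grouped as live draining, live non-draining, fixed draining, fixed non-draining and naive) split by cluster (colors). The live draining bars reach 12, 12 and 6 cells and hold 1 arterial-like cell in all, against 11 in the live non-draining bars.

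Between live draining and live non-draining nodes, 17 of 3802 genes tested were called in BECs (0.447%), with 4 higher and 13 lower in live draining nodes. UMIs were summed over the BECs of each library and tested with edgeR's quasi-likelihood method, and a gene was called where the adjusted p was below 0.05. Levels by library are CPM scaled by TMM (edgeR's correction for library composition). At an unadjusted p under 0.05 there were 497 genes. The libraries of the 2 groups did not overlap for 16 of the 17 called genes, against 31.7% of all genes tested. Leaving out a tested live draining or fixed non-draining library left a single library in that group, and leaving out doublets did so for live draining nodes. Counts of alternatives given below include such fits, which say little of robustness. The number called depended on the libraries and cells used. It was 8 without live draining replicate B, 7, 3 and 3 without live non-draining replicates A, B and C, and 0 when libraries with 5 or more BECs were let in (live draining replicate C and fixed non-draining replicate C), whereas the 17 kept their direction in each alternative, with Cxcl9 as the exception.

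The clearest fall was in Timp3 (chr10:86300372-86349506, GRCm38, protein-coding), an inhibitor of metalloproteases that is held in the extracellular matrix and that blocks VEGF binding to its receptor KDR. It stood at 358 and 201 CPM in live draining libraries and at 938, 834 and 1228 CPM in live non-draining libraries. Fixed draining (1062, 1155 and 1231 CPM), fixed non-draining (776 and 838 CPM) and naive libraries (823 to 1044 CPM) all lay above both live draining values. The log2 fold change was -1.81 ± 0.29 (SE, adjusted p = 0.00894). HEV-like cells held less Timp3 (221 CPM) than the other clusters (733 to 1253 CPM), but without the HEV-like cells the fall was -2.26 (adjusted p = 0.000342). It was called in 17 of 21 alternatives, within -2.31 to -0.93. It missed the threshold without live draining replicate B (-1.52, adjusted p = 0.0805), when both replicates C with 6 and 7 BECs were let in (-1.39, adjusted p = 0.11), in a fit of inoculated mice only (-1.81, adjusted p = 0.0627) and when 1 lymphatic UMI was allowed (-0.93).

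Nrp1, Plpp3, Rasgrp3, Itih5 and Sparcl1 fell as well. Nrp1, the VEGF co-receptor, stood at 406 and 510 CPM in live draining libraries and 1243, 781 and 1244 CPM in live non-draining libraries (log2 fold change -1.26 ± 0.28, adjusted p = 0.0451). Plpp3, a lipid phosphatase of the plasma membrane, stood at 274 and 294 CPM against 942, 683 and 990 CPM (-1.62 ± 0.36, adjusted p = 0.0451). Rasgrp3, an exchange factor that activates Ras and Rap1, stood at 23.9 and 92.8 CPM against 257, 213 and 344 CPM (-2.30 ± 0.43, adjusted p = 0.0387). The 2 groups did not overlap for any of these 3 genes, nor for 31.7% of all genes tested. The naming rule asked for lack of overlap in the largest changes, so it adds no support. With each of the 5 libraries left out in turn, Plpp3 passed in none (adjusted p = 0.0588 to 0.241), Nrp1 only without live non-draining replicate B (0.0739 to 0.298 otherwise), and Rasgrp3 in all but the fits without live draining replicate A (0.269) and live non-draining replicate C (0.0608). Itih5, which stabilizes hyaluronan in the matrix, stood at 239 and 108 CPM in live draining libraries and 610, 524 and 663 CPM in live non-draining libraries, and the matrix protein gene Sparcl1 at 513 and 418 CPM against 954, 1402 and 1309 CPM (log2 fold changes -1.74 and -1.37, adjusted p = 0.0451 for both).

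Transcriptional and metabolic regulators were among the other genes that fell. Klf4, a transcription factor that flow induces in endothelium, stood at 191 and 77.3 CPM in live draining libraries and 533, 311 and 393 CPM in live non-draining libraries (log2 fold change -1.59 ± 0.36, adjusted p = 0.0451). Without live draining replicate A its value was -2.44, and it missed the threshold without live draining replicate B (0.267) or live non-draining replicate A, B or C (adjusted p = 0.135, 0.0541 and 0.0608). Ets2, a transcription factor, stood at 167 and 139 CPM against 393, 435 and 352 CPM (-1.34). Txnip, an inhibitor of thioredoxin and of glucose uptake, stood at 274 and 155 CPM against 441, 746 and 826 CPM (-1.58). Ets2 and Txnip were called in 6 and 9 of 21 alternatives, and neither was called without HEV-like cells (adjusted p = 0.0627 and 0.175). Klf4, Ets2 and Txnip were without overlap as well, which adds no support for the same reason. Tns1, a focal adhesion protein gene, Nbeal1 and the repressor gene Zbtb20 were also called lower (-1.35, -1.42 and -1.30, adjusted p = 0.0451 each). Tns1 and Zbtb20 were picked for naming after their values were seen.

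Several of these genes are unevenly spread over the clusters, and the make-up of the libraries moves with the result. In the HEV-like cluster Nrp1 stood at 395 CPM and Plpp3 at 221 CPM, against 791 to 1662 and 343 to 1304 CPM in the others, and HEV-like cells were 50.0% and 33.3% of BECs in the live draining libraries tested. Without HEV-like cells Nrp1 fell by 1.35 (adjusted p = 0.0306) and Klf4 by 2.47 (adjusted p = 0.00199), while Plpp3 missed the threshold (-1.43, adjusted p = 0.0546), as did Itih5 (-1.63, adjusted p = 0.067) and Sparcl1 (-1.12, adjusted p = 0.0838). Rasgrp3 stayed called (-2.64, adjusted p = 0.0182). Without the stress-led cluster, in which Nbeal1 (584 CPM) and Zbtb20 (1226 CPM) were highest, Timp3 alone stayed called, and the others kept their direction.

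Mfge8 (chr7:79133768-79149060, GRCm38, protein-coding), a secreted bridge between phosphatidylserine and integrins, rose. It stood at 3783 and 1238 CPM in live draining libraries and at 690, 728 and 974 CPM in live non-draining libraries, with fixed and naive libraries at 326 to 928 CPM. Both live draining libraries lay above the rest, and replicate A stood far above replicate B. The log2 fold change was 1.67 ± 0.36 (adjusted p = 0.0451). Mfge8 was highest in the HEV-like cluster here (1582 CPM, against 263 to 401 CPM in the others). Its change was 0.56 without HEV-like cells (adjusted p = 0.475) and 0.64 without live draining replicate A. The paper lists Mfge8 among its markers of follicular dendritic cells, and the part of their transcripts was not tested.

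Isg15, a ubiquitin-like protein that interferons induce, stood at 298 and 1036 CPM in live draining libraries and at 156, 97.6 and 262 CPM in live non-draining libraries (log2 fold change 1.92 ± 0.43, adjusted p = 0.0451). The groups did not overlap, as the naming rule required, and replicate B stood highest. Without HEV-like cells it was called too (2.04, adjusted p = 0.0326), but not without replicate B (0.76, adjusted p = 0.583). Akr1a1, an aldehyde reductase, stood at 525 and 588 CPM against 285, 195 and 286 CPM (1.09 ± 0.24, adjusted p = 0.0451). It was called in 4 of 21 alternatives, and not without HEV-like cells (1.1, adjusted p = 0.1). Cxcl9 was called at a log2 fold change of 4.35, but its 87 UMIs in live draining replicate B came from 3 cells, replicate A had none, and without replicate B the value was -5.29.

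The type I interferon genes were the list with the highest median in the live comparison. Of 17 members tested, 13 were above 0, 8 reached an unadjusted p under 0.05 and 1 (Isg15) was called, with a median log2 fold change of 0.74 against 0.01 over all genes. Of the 3799 genes tested that the selection did not use, 1915 were above 0 and 242 reached that p in the higher direction. Rtp4 stood at 179 and 278 CPM in live draining libraries and 108, 62.1 and 90.0 CPM in live non-draining libraries (1.30, adjusted p = 0.116). Ifit1, which binds viral RNA, stood at 35.8 and 480 CPM against 72.2, 35.5 and 24.6 CPM (2.24, adjusted p = 0.156), so that the groups overlapped, and its value was -0.52 without live draining replicate B. It was -0.48 with doublets left out, a fit that replicate B did not enter either. The list's median ran from -0.41 to 1.65 over 21 alternatives and was above 0 in 19. In fixed-cell recipients it was -0.23.

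The stretch before the transcription start of interferon genes often holds interferon-stimulated response elements, and these are shown for Isg15 and Ifit1 because they carry the interferon values above. Each is 120 bases of RefSeq sequence on GRCm38.p6, 5′ to 3′ on the gene's strand, ending at the base before the start. Capitals mark matches to 2 copies of GAAA with any 2 bases between them, or to the same with TTTC on the other strand, joined where they overlap. Isg15 (chr4:156200819-156200938, minus strand) has 3 overlapping matches and Ifit1 (chr19:34640769-34640888, plus strand) has 2. Of all 32851 such stretches, 1.22% hold a match on either strand. Of the other interferon-induced genes searched, Irgm1 has 2 matches and Ifit3 and Cxcl9 have 0. A match describes letters only.
Isg15: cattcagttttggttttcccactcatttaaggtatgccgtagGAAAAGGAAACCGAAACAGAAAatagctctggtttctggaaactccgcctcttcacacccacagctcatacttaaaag
Ifit1: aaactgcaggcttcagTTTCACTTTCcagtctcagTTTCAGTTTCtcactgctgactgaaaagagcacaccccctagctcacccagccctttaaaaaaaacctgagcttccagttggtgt

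**Figure D4:**
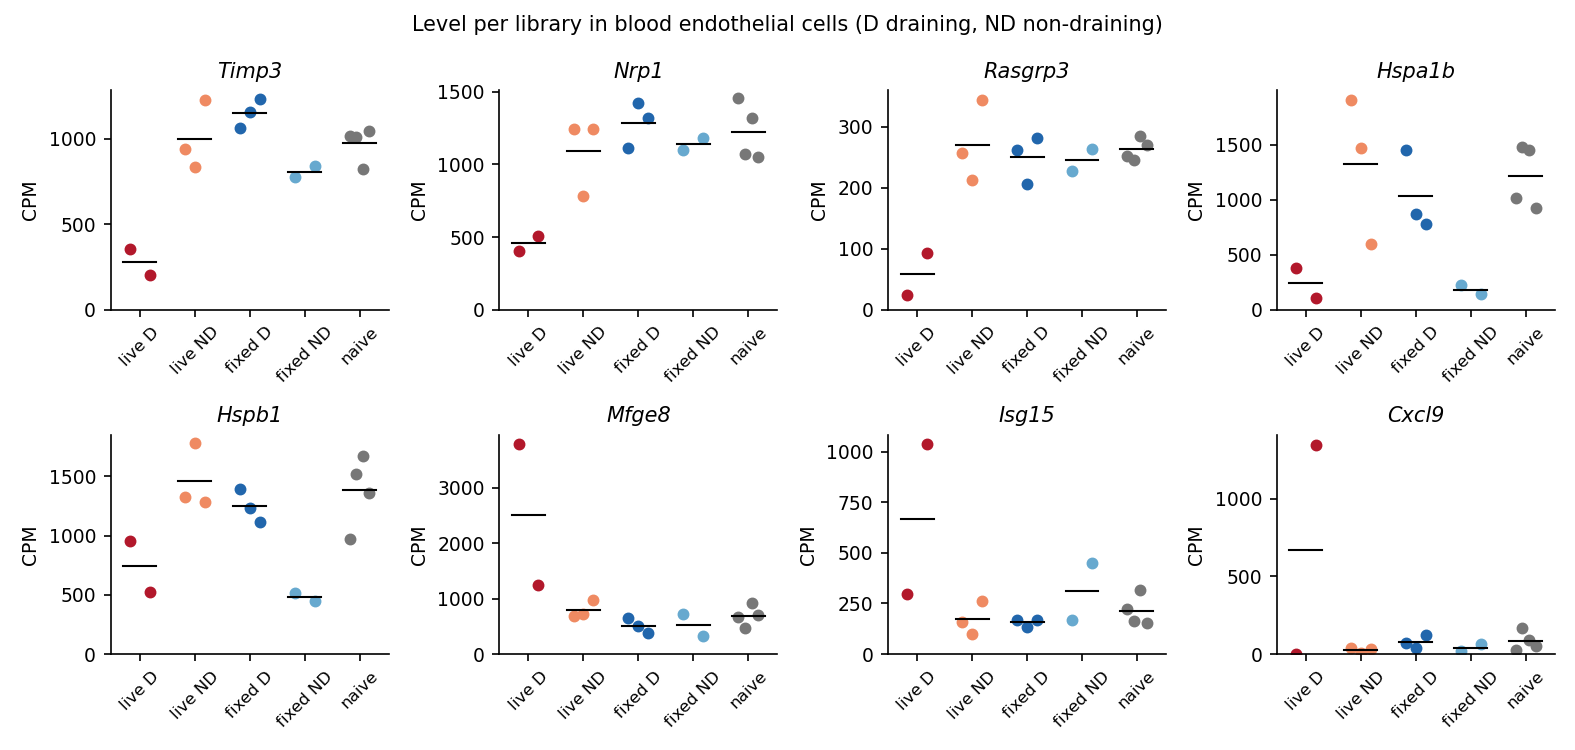
Level of 8 genes in BECs, in TMM-scaled CPM (vertical axes, from 0), with 1 point per library that had at least 10 BECs and the group mean as a bar. Live draining libraries lie lowest for Timp3, Nrp1 and Rasgrp3 and highest for Mfge8, and Hspa1b and Hspb1 are low in live draining and fixed non-draining libraries.

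The draining effect on Hspa1b and Hspb1 differed between the 2 inocula. Hspa1b (chr17:34956436-34959238, GRCm38, protein-coding), an inducible HSP70, stood at 382 and 108 CPM in live draining libraries and at 1901, 1473 and 597 CPM in live non-draining libraries (log2 fold change -2.39 ± 0.48, adjusted p = 0.0451). In fixed-cell recipients it stood at 1455, 869 and 780 CPM in draining libraries and at 227 and 140 CPM in non-draining libraries (2.52 ± 0.53, adjusted p = 0.366). That rise was called in 2 of 21 alternatives, DESeq2 among them (adjusted p = 0.00602). Within each inoculum the groups did not overlap, as the naming rule required in live nodes, and their order was opposite. The difference between the 2 draining effects was -4.91 ± 0.72 (adjusted p = 0.00225). It was called in each of 26 alternatives, several of which had a single library in a group. Naive libraries held 921 to 1475 CPM, above both live draining and both fixed non-draining values. Hspa1a is a near-identical copy of this gene, so the split of UMIs between them is uncertain.

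Hspb1 (chr5:135887919-135889563, GRCm38, protein-coding), the small heat shock protein HSP27, followed the same order. It stood at 955 and 525.9 CPM in live draining and 1323, 1784 and 1285 CPM in live non-draining libraries, and at 1389, 1236 and 1118 CPM in fixed draining and 511 and 450 CPM in fixed non-draining libraries. Neither comparison was called alone (-0.96 and 1.38, adjusted p = 0.155 and 0.45), but the difference between them was (-2.34 ± 0.43, adjusted p = 0.0204), though not without live draining replicate B, fixed non-draining replicate A or fixed non-draining replicate B (adjusted p = 0.117, 0.0799 and 0.0736), with both replicates C let in (0.327), or with the replicate letters as a block (0.0512). Timp3 was the only other gene called for this difference (-2.31 ± 0.39, adjusted p = 0.00908), at 3 of 3802 genes or 0.0789%. For Timp3 the fixed draining libraries lay above the fixed non-draining ones (0.51, adjusted p = 0.945), and the difference missed the threshold without live draining replicate B or fixed non-draining replicate A (adjusted p = 0.0936 and 0.0705), with both replicates C let in (0.0901), with 1 lymphatic UMI allowed (0.29) or with the block (0.0512). Hspa1b was highest in the stress-led cluster (2147 CPM), Hspb1 in the capillary-like cluster (1545 CPM). Without the stress-led cluster the differences were -4.94 and -2.31, both called. The part of handling in these heat shock values was not tested.

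Heat shock genes are switched on by HSF1 through heat shock elements near their start, and the stretches of Hspa1b and Hspb1 are shown because the draining effect on these genes differed between live and fixed cells. They are given as above, with capitals for matches to GAANNTTC, which reads the same on both strands. Hspa1b (chr17:34959239-34959358, minus strand) holds 1 match and Hspb1 (chr5:135887799-135887918, plus strand) holds 2. Hsph1, also named here, holds 0. A match is found in 3.20% of the 32851 stretches.
Hspa1b: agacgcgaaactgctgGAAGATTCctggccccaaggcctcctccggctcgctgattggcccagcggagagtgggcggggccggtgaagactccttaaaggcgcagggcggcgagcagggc
Hspb1: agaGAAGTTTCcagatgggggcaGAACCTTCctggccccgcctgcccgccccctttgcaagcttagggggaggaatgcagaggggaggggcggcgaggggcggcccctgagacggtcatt

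In fixed-cell recipients no gene was called between draining and non-draining nodes by edgeR (0 of 3802, 0%), with 194 at an unadjusted p under 0.05. DESeq2 called 1. Klf2, which shear stress induces and which keeps endothelium quiescent, stood at 567, 842 and 921 CPM in fixed draining libraries and at 2025 and 1180 CPM in fixed non-draining libraries (log2 fold change -1.04, adjusted p = 0.945), and its value was -0.18 without HEV-like cells. Cxcl12, a chemokine of arterial endothelium, stood at 1607, 2535 and 2528 CPM against 624.6 and 1506 CPM (1.04, adjusted p = 0.945). Neither gene was called in this fit, which had 2 fixed non-draining libraries.

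Few genes were called between non-draining and naive nodes. Between live non-draining and naive libraries edgeR called no gene (0 of 3802, 0%), with 127 at an unadjusted p under 0.05, and DESeq2 called none. Between fixed non-draining and naive libraries edgeR called 2 (0.0526%). Klf2 was higher, at 2025 and 1180 CPM in fixed non-draining libraries and 413 to 805 CPM in naive libraries (log2 fold change 1.51, adjusted p = 0.043). Hspa1b was lower (-2.74, adjusted p = 0.043). They were called in 10 and 9 of 19 alternatives. Median mitochondrial shares of BECs were 8.46% to 12.8% in fixed non-draining libraries and 5.35% to 6.94% in naive libraries, and their part was not tested. All fixed non-draining libraries also share a family of library codes that only replicate A has among naive libraries.

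The gene lists give the wider pattern of the live comparison, as counts and medians. Immediate early and dissociation stress genes had the lowest median (-1.02). Of 25 tested, 24 were below 0, 10 reached an unadjusted p under 0.05 in that direction and 2 were called lower (Hspa1b and Klf4). Of the 3799 genes tested that the selection did not use, 13 were called lower and 253 reached that p in the lower direction. The median stayed between -1.80 and -0.72 over 21 alternatives and was -1.02 without the stress-led cluster. In fixed-cell recipients it was -0.64. Hsph1, an HSP70 partner, stood at 47.7 and 15.5 CPM in live draining libraries and 229, 284 and 81.8 CPM in live non-draining libraries (-2.55, adjusted p = 0.164). Genes of this list also respond to enzymatic digestion, which every node went through, and the part of digestion was not tested.

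Arterial genes came next, with a median of -0.93 over 11 tested and none called. Sema3g stood at 11.9 and 108 CPM in live draining libraries and 148, 284 and 336 CPM in live non-draining libraries (-2.14, adjusted p = 0.21), and Fbln5 at 23.9 and 61.9 CPM against 92.2, 302 and 303 CPM (-2.38, adjusted p = 0.262). Arterial-like cells numbered 1 and 0 in the live draining libraries tested and 4, 4 and 3 in the live non-draining ones, and the levels of these genes move with that count. Of 12 VEGF and angiopoietin signaling genes 10 were below 0 (median -0.54), with Nrp1 called, and Ptprb, a phosphatase that restrains the TIE2 receptor, stood at 334 and 774 CPM against 970, 1163 and 1113 CPM (-0.99, adjusted p = 0.182). The endothelial genes outside the selection had a median of -0.14. Of the 3799 genes tested that the selection did not use, 1882 were below 0.

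HEV genes had a median of 0.52, with 12 of 15 above 0 and none called. Serpinb1a, a protease inhibitor, stood at 943 and 990 CPM in live draining libraries and 573, 133 and 270 CPM in live non-draining libraries (1.47, adjusted p = 0.155, and 0.42 without HEV-like cells). Among venous genes Vcam1, which binds leukocyte integrins, stood at 310 and 108 CPM against 84.2, 44.4 and 40.9 CPM (1.80, adjusted p = 0.204). Lrg1 stood at 4642 and 2042 CPM against 1371, 1633 and 1367 CPM (1.21, adjusted p = 0.271). The 3 genes were without overlap, as were 31.7% of all genes tested in this comparison, and did not pass the test. Nuclear genes of oxidative phosphorylation had a median of 0.41, and 39 of 43 were above 0 with 11 at an unadjusted p under 0.05. Of the 3799 genes tested that the selection did not use, 1915 were above 0 and 242 reached that p in the higher direction. Atp5e, a subunit of the ATP synthase, stood at 883 and 758 CPM against 413, 364 and 524 CPM (0.93, adjusted p = 0.125). Actin cytoskeleton genes had a median of 0.37 with 23 of 27 above 0. Of 27 cell cycle genes only 5 were tested (median 0.08). Their median was 1.5 with both replicates C let in and 0.86 with no Flt1 requirement, and division markers summed to 4101.3 CPM in 1 live draining library, through the single dividing cell, against at most 37.5 CPM in live non-draining libraries.

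**Figure D5:**
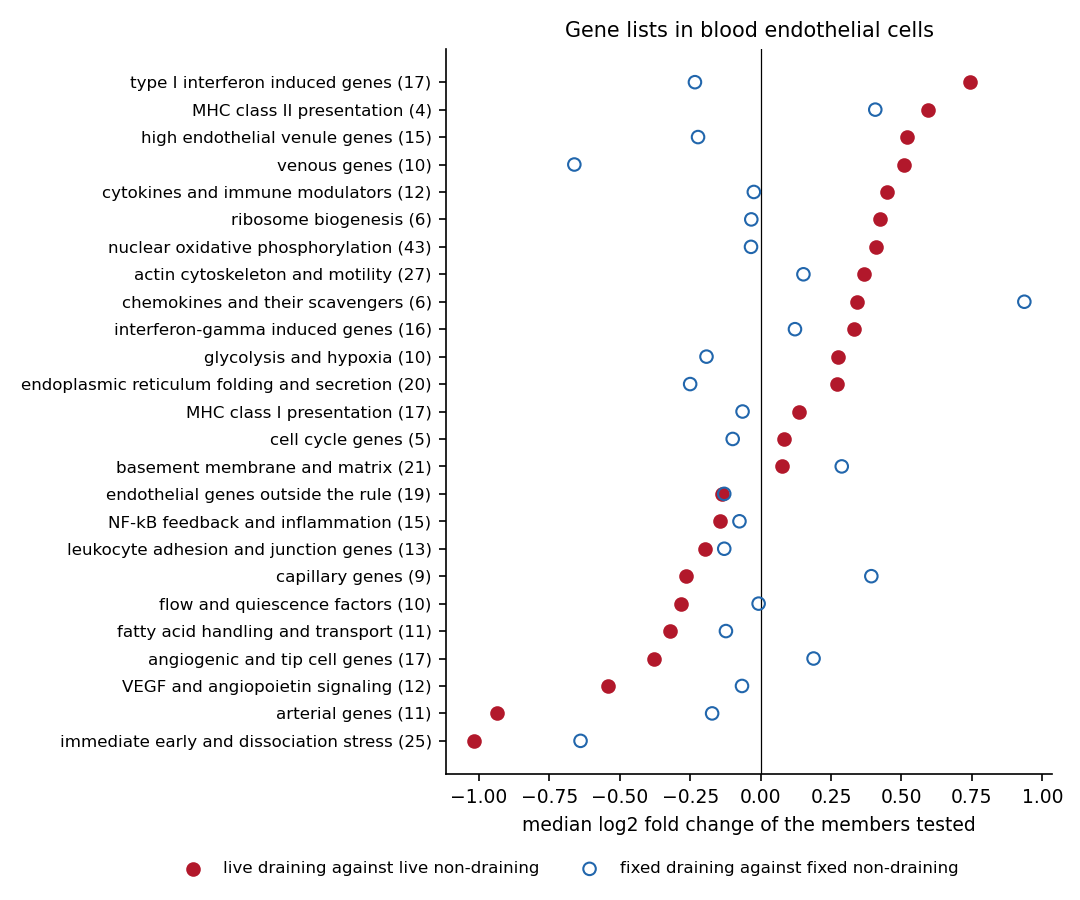
Median log2 fold change over the tested members of 25 gene lists in BECs (horizontal axis), for live draining against live non-draining nodes (filled) and fixed draining against fixed non-draining nodes (open), with the number of members tested in brackets. Stress and arterial genes lie farthest left in the live comparison (-1.02 and -0.93) and type I interferon genes farthest right (0.74), whereas the fixed values of these lists are -0.64, -0.17 and -0.23.

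Set against LECs of the same libraries, the live draining effect in BECs differed for 53 of 13549 genes (0.391%), with the effect higher in BECs for 9 and lower for 44. The count filter could be met by the LEC sums alone, so more genes entered than the 3802 tested in BECs. Some of them had almost no UMIs in BECs. DESeq2 called 9 genes, and 4 were called with at most 50 cells per library. For Timp3 the difference of the effects was -1.94 ± 0.36 (adjusted p = 5.71e-05), and LECs held means of 1802 CPM in live draining and 1794 CPM in live non-draining nodes. LEC means here and below cover all libraries of a group, whereas BEC means and the test of the difference cover those with at least 10 BECs. Plpp3 (-1.87, adjusted p = 2.68e-05) and Nrp1 (-1.90, adjusted p = 0.000724) fell in BECs and stood in LECs at 66.1 and 61.6 CPM and at 6.01 and 4.85 CPM. For Mfge8 the difference was 1.33 (adjusted p = 0.00218), with LECs at 253 and 236 CPM. Timp3 was called in 16 of 17 alternatives, Plpp3 in 11, Nrp1 in 9 and Mfge8 in 9. Without live draining replicate A the values were -1.60 for Plpp3, -0.70 for Nrp1 and 0.49 for Mfge8, none of them called. Nrp1 stood at 1.53 with at most 50 cells per library, and DESeq2 called neither Nrp1 nor Mfge8 (adjusted p = 0.61 and 0.476). Isg15 was not called for a difference (-0.08, adjusted p = 1.0) and rose in LECs too, to a mean of 561 CPM in live draining nodes against 161 CPM in live non-draining nodes. Hspa1b was not called either (-0.97, adjusted p = 0.495), and fell in LECs to 951 CPM in live draining nodes, against 2496 CPM in live non-draining nodes (adjusted p = 3.14e-11).

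Among the other genes called were some that rose in LECs and did not pass the test in BECs. Ly6a stood at means of 1688 and 1521 CPM in BECs of live draining and live non-draining nodes and at 44.6 and 4.48 CPM in LECs. Cd34, a sialomucin of vessels, stood at 1145 and 1191 CPM in BECs and 14.7 and 3.23 CPM in LECs. The regulatory ligand gene Cd200 stood at 623 and 791 CPM in BECs and 193 and 42.5 CPM in LECs. The differences of the effects were -2.85, -2.02 and -2.65 (adjusted p = 5.46e-13, 4.16e-05 and 2.03e-15). Cd200 was called in each of 17 alternatives, Ly6a in 15 and Cd34 in 13, and DESeq2 called neither Ly6a nor Cd34 (adjusted p = 0.374 and 0.218). Without live draining replicate A, Cd34 was not called (-1.43, adjusted p = 0.309). These 3 genes were picked for naming after their values were seen.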

How the data were processed

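UMIs per gene and barcode were counted by the authors with Cell Ranger 3.0.1 on mm10 (10x Genomics 3′ v3 libraries) and deposited as raw counts for 16 libraries. Cells with 200 to 6000 genes and at most 30% mitochondrial UMIs were kept, and BECs were taken by the rule given at the opening. LECs met the same limits with at least 2 UMIs of Cdh5 and Pecam1 and at least 2 of Prox1, Flt4, Mmrn1 and Lyve1. The members, gene lists and tests were chosen with earlier results of these data known.

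BECs were clustered with SCTransform (sctransform 0.4.2) in Seurat 5.3.0 (R 4.3.3) on 2000 variable genes and 20 components at a resolution of 0.8. The names of clusters rest on markers, but the labels of the 2 unnamed clusters were set after their leading genes were seen. Counts summed over BECs of each library with at least 10 of them (14 libraries, counts before summing as deposited) were filtered with filterByExpr, scaled by TMM and tested by the edgeR 4.0.16 quasi-likelihood method in 1 model of 5 groups, with Benjamini-Hochberg adjustment over all genes tested. BECs and LECs were compared with the library as a block. Shares were tested by exact two-sided permutation in scipy 1.17.1. The edgeR test of the live comparison was checked on simulated counts with changes planted in live draining libraries. It recovered 25.4% of 2-fold, 71.6% of 4-fold and 84.8% of 8-fold changes, and 5.47% of the genes it called were unchanged. Smaller changes can thus be missed. Replicates are the labelled libraries, and p-values measure the spread between them, which may be technical.

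Genes were named if called at 5 or more in mean log2 CPM, taking the 8 largest changes a direction without overlap of draining and non-draining libraries, and the 6 largest for live minus fixed. To these came the 4 largest called for blood minus lymphatic and, per list, its 4 members of lowest p at most. Alternatives were DESeq2 1.42.0, RLE factors, no filter, replicate letters as a block, fewer libraries, library code family, other cell rules, doublets left out (scrublet in scanpy 1.11.5, 0.8% of a library for each 1000 kept cells) and each library left out. Tests within a cluster were not run, as no cluster held 10 cells in all live libraries. Positions are from gencode vM21.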

Additional observations from a re-analysis of the deposited data

Results flagged for a closer look

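Among naive libraries, 59 quantities were looked at for 1 library far from the other 3, and 4 showed one, where chance alone gives about 1 in 20. These were the BEC share of endothelial cells (7.572% in replicate A), Ctla2a (2717 CPM in replicate A), Id2 (170.1 CPM in replicate D) and Timp3 (823.4 CPM in replicate C, below the other 3).

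A test of the difference itself in edgeR set the draining effect of live MC38 cells apart from that of fixed MC38 cells for Hspa1b (-4.91 on the log2 scale), Hspb1 (-2.34) and Timp3 (-2.31). Hspa1b and Timp3 were called in 26 and 21 of 26 alternatives, and Hspb1 in 21.

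The live draining effect differed between BECs and LECs by the same kind of test for the following genes, of which those beyond the 4 largest were in part chosen after their values were seen. Fitted values of genes with a group at or near 0 UMIs are no bound on the true difference: Vegfc (-11.89) had 0, 0 and 0 UMIs in BECs of live draining and 1, 7 and 9 in live non-draining libraries, Cd36 (-10.94) had 0, 0 and 6 against 9, 38 and 50 (the 6 in replicate C, which the fit left out, and -1.80 with it let in), Cyp1b1 (9.44) had 2, 4 and 0 against none, and Mgp (-7.47) had 1, 0 and 0 against 5, 100 and 3, where 3 cells held the 100. Vegfc, Cd36 and Mgp are highest in the arterial-like cluster, with 1 cell from nodes draining live MC38 cells and 11 from the opposite nodes.

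The live draining effect, not the level, was also lower in BECs than in LECs for Ly6a (-2.85), Cd200 (-2.65), Cd34 (-2.02), Timp3 (-1.94), Nrp1 (-1.9), Plpp3 (-1.87), Ctla2a (-1.81) and Serpinb1a (-1.79). The same held for Emcn (-1.23, called in 3 of 17 alternatives), a sialomucin of capillaries and veins, and Id2 (-3.55), an inhibitor of helix-loop-helix factors. Id2 stood at 248 CPM in LECs of live draining and 45.8 CPM in LECs of live non-draining nodes. The immunoglobulin genes Ighm (-3.37) and Igkc (-2.75) were called, and in BECs 207 and 278 of their UMIs lay in live non-draining replicate A. The effect was higher in BECs than in LECs for Cxcl10 (4.6), a chemokine that interferon induces, and Mfge8 (1.33). Cxcl10 was found in only 16 of 336 BECs, with 132 UMIs in all. It was called in 10 of 17 alternatives, but not by DESeq2 (adjusted p = 0.736) or with both replicates C let in (3.94, adjusted p = 0.236).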

How the results depend on the processing

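Each test was refitted with other settings. Calls between live draining and live non-draining nodes numbered 17, with 75 under no filter, 0 from the inoculated libraries only, 5 with the library code family as a covariate, 27 with Flt1 of at least 2, 219 with no Flt1 requirement, 9 with Ptprc of 0, and 0, 33 and 1 under settings added after the data were seen (at least 5 cells per library, at most 1 lymphatic UMI, no stress-led cluster). What the library codes stand for is not given in the sources used here, but their families follow the groups in part. No live library has the family that all fixed non-draining libraries share. Leaving out 1 library gave 3 to 17 (17 without live draining replicate A, 8 without B, and 7, 3 and 3 without live non-draining A, B and C). For the fixed comparison they numbered 0, with 1 by DESeq2, 19 under no filter and 0 to 4 with 1 library left out (4 without fixed non-draining replicate B). Live minus fixed gave 3, with 8 by DESeq2, 36 under no filter, 48 with no Flt1 requirement, 11 with at least 2000 UMIs, 18 without doublets, 1 with at least 5 cells, 5 with at most 1 lymphatic UMI and 1 to 8 with 1 library left out. Live non-draining against naive gave 0, with 24 under no filter, 2 with the code family, 1 with at most 10% mitochondrial UMIs (the only comparison that setting left fittable) and 0 to 3 with 1 library left out. Fixed non-draining against naive gave 2, with 24 under no filter, 0 with Flt1 of at least 2, Ptprc of 0, at least 2000 UMIs or at least 5 cells, 4 without doublets or with at most 1 lymphatic UMI, and 0 to 11 with 1 library left out. Blood minus lymphatic gave 53, with 9 by DESeq2, 95 with no Flt1 requirement, 25 with at least 2000 UMIs, 4 with at most 50 cells per library and 28 to 62 with 1 library left out. The cause of these shifts was not tested. The BEC share of endothelium in fixed nodes turned to 0.0896 points higher in draining nodes at 10% mitochondrial UMIs and 0.3161 with 1 lymphatic UMI, and ran from -0.4626 to 0.2712 (0.0992 without fixed draining B) with 1 library left out. Cluster shares in live nodes turned for HEV-like cells (-7.4074 without live draining A, range -7.4074 to 17.5926) and capillary-like cells (-1.3889 with LogNormalize, -6.4815 without live draining C, -0.3472 without live non-draining B), and those of the stress-led cluster turned with LogNormalize (2.7778 live, -3.1907 fixed). Single genes that turned were Cxcl9 (-5.3209 without doublets, -5.2889 to 5.4275 with 1 library left out, lowest without live draining B), Ifit1 (-0.4794 without doublets, -0.5221 to 3.2364 likewise), Lama4 (0.065 with at least 5 cells), and, for blood minus lymphatic, Cd36 (0.2642 with 1 lymphatic UMI) and Nrp1 (1.5252 with at most 50 cells).

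With the replicate letters as a replicate block, 14 genes were called between live nodes (8 of them among the 17), 1 for live minus fixed and 1 for live non-draining against naive. Deviations of same-lettered live libraries correlated at 0.014 and -0.026, those of fixed libraries at 0.125 and 0.103, over 2 pairs each. Live draining and fixed non-draining nodes had 2 libraries each here, whose deviations mirror each other, so these values cannot decide on pairing. The paper collected both the draining and the opposite nodes of its mice. Which libraries share a mouse is not given, and the letters were not taken as pairs. Paired by letter, the BEC share gave an exact sign-flip p of 0.25 in live nodes, the smallest that 3 pairs allow. Depth limits these results: the 12 BECs in each live draining library tested gave 114378 and 77840 UMIs.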
